A study of Mus musculus with 6 samples.

Results

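The cytotoxic granule genes of CD8+ T cells were described here by their open chromatin: the 5 granzyme genes Gzma, Gzmb, Gzmc, Gzmk and Gzmm and the perforin gene Prf1. A peak was counted for one of them when that gene was the nearest protein-coding RefSeq gene body to the peak's summit, with the summit inside the gene or within 100 kb of it. This gave 157 of the 573921 peaks in the 6 libraries. Peaks that overlapped by at least 1 bp between libraries were merged into regions, and 31 of the 134174 regions belonged to the 6 genes.

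Open DNA was mapped by ATAC-seq: a transposase cuts and tags DNA that is not wrapped in nucleosomes. The cells were mouse CD8+ T cells purified from spleen by depletion, activated with antibodies against CD3 (5 µg/mL) and CD28 (1 µg/mL) and kept for 48 h below a porous insert. The insert held PD-1-resistant lung adenocarcinoma cells, which were either the control line Res-ctrl (3 libraries) or Res-shFabp7 (3 libraries), the same kind of cells with a short hairpin RNA knockdown of Fabp7, a fatty acid binding protein. Both groups shared the activation, the time and the presence of resistant tumour cells, and the T cells themselves carried no knockdown. T cells without tumour cells were not analysed here, and the sources used here do not state the number of hairpins, tumour clones or mice. The labels call the libraries biological replicates, and where they did not come from separate mice the p-values measure only the spread between these libraries. The question of the comparison was whether the tumour cells opposite changed open chromatin in the T cells.

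Killer T cells store perforin and granzymes in lysosome-like granules and release them towards a bound target. Perforin, encoded by Prf1, makes pores in the target's membrane, and granzymes, a family of serine proteases, pass into the cytosol. Granzyme B cuts after aspartate and activates caspases, granzymes A and K are tryptase-like, and granzyme M prefers to cut after methionine or leucine. Granzyme C belongs to the cluster of granzyme and mast cell protease genes next to Gzmb. Naive CD8+ T cells hold little granzyme B or perforin, and activation through the T cell receptor with costimulation turns on both genes.

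The libraries differed in depth, which touches every count of peaks below. The Res-shFabp7 lists held 100243 to 105796 peaks and the Res-ctrl lists 82153 to 96310. The most frequent local background of a list, a relative measure of depth, was 0.868 to 1.03 with Res-shFabp7. With Res-ctrl it was 0.709, 0.608 and 1.01, so that Res-ctrl replicates 1 and 2 were the shallowest and replicate 3 lay within the range of the Res-shFabp7 libraries. The part of depth in the results was not tested beyond the alternatives given with them. Of the CD8 T cell markers Cd8a, Cd8b1, Cd3e, Cd3d, Cd3g, Lck, Bcl11b and Thy1, 8 of 8 had at least 1 region called in every library. The same held for 4 of 4 CD4 T cell markers and 65.3% of all genes, so that the count does not tell the lineages apart. As the cells were measured in bulk, fewer cells with an open region and a region less often open in each cell cannot be told apart.

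The promoters are shown first because the 6 genes differed in whether a peak was called there. Of 21263 promoter windows of protein-coding genes (250 bases before to 50 after a start, RefSeq on GRCm38.p6, whose primary assembly is mm10), 48.9% overlapped a region with a peak in all 6 libraries and 45.5% overlapped no region. The windows of Gzmb, Prf1 and Gzma overlapped a region in all 6 libraries, that of Gzmc overlapped a region found in 1 library, and those of Gzmk and Gzmm overlapped none. The bases upstream of the Gzmb, Prf1, Gzma and Gzmk starts are given below, 5′ to 3′ on the gene's strand and ending at the base before the transcript or, for Prf1, before the annotated gene body. Capitals mark matches to short binding motifs of transcription factor families.
Gzmb, minus strand, chr14:56262335-56262584, peak in 6 of 6 libraries: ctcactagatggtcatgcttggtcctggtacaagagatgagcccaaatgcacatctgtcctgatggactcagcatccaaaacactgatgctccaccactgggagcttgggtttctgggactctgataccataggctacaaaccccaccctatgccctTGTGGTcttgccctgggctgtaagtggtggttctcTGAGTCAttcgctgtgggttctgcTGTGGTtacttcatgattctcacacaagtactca
Prf1, plus strand, chr10:61297586-61297750, peak in 6 of 6 libraries: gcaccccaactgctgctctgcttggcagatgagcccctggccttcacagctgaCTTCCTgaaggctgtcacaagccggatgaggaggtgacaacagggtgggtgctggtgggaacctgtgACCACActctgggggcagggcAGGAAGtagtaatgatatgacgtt
Gzma, minus strand, chr13:113100982-113101231, peak in 6 of 6 libraries: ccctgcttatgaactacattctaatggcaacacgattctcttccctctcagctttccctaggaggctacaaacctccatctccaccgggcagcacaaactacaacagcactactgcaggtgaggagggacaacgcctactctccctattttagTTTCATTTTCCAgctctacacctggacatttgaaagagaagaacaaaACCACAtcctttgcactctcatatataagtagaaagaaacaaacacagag
Gzmk, minus strand, chr13:113180966-113181215, peak in 0 of 6 libraries: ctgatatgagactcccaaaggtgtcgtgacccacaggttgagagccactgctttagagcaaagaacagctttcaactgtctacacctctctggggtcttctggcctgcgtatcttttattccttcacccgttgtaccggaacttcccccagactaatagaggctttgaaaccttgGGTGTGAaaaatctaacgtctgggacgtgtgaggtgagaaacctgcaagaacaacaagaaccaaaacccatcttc

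Letters were searched on both strands for RUNX (TGTGGT), ETS (AGGAAG), T-box (GGTGTGA), AP-1 (TGANTCA), NFAT (TGGAAA), STAT (TTCNNNGAA), IRF (GAAA repeated after any 2 bases) and E-box (CACGTG) motifs in 7 windows, since Gzmm has 2 starts. The RUNX letters were present in 5 of 7 windows, those of Gzma, Gzmb, Gzmc, Prf1 and the first Gzmm start. Of all 250-base windows 12.4% held them, and of windows cut to 165 bases, the length printed for Prf1, 8.38%. RUNX factors, chiefly Runx3, are well-known regulators of the CD8 lineage. In Gzmb the RUNX letters began 93 and 34 bases before the start, on both sides of an AP-1 match that began 58 bases before it. AP-1 letters were in 1 of 7 windows and in 6.13% of all windows. In Prf1 a RUNX match 130 bases before the start lay between ETS matches 197 and 109 bases before it, and ETS letters were in 3 of 7 windows and 28.5% of all. In Gzma the RUNX match began 50 bases before the start, and an IRF match at 97 bases overlapped an NFAT match at 91 bases. IRF letters were in 1 of 7 windows and 2.96% of all, NFAT letters in 2 of 7 and 17%. The Gzmk window held a T-box match 75 bases before the start, and T-box letters were in 2 of 7 windows and 3.08% of all. STAT and E-box letters were each in 1 of 7 windows, at the first and second Gzmm start, against 6.58% and 6.63% of all windows. These matches describe the letters only.

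Each promoter summit could be set against these letters. The tallest summit at Gzmb lay 92, 92 and 91 bases before the start in the Res-shFabp7 libraries and 92, 92 and 64 bases before it in the Res-ctrl libraries, so that 5 of 6 fell within the RUNX match from 93 to 88 bases. At Prf1 the 6 summits lay 155 to 186 bases before the start, between its ETS match from 197 to 192 bases and its RUNX match from 130 to 125 bases. At Gzma they were spread over 122 bp, from 114 bases before the start to 8 bases inside the gene. The Gzmb and Prf1 summits were spread over 28 and 31 bp.

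Of the 31 regions, 17 had a peak in all 6 libraries, beside 42.2% of all regions. Gzmb had 7 such regions of 13, Prf1 4 of 6, Gzmk 2 of 5, Gzmm 2 of 3, Gzmc 1 of 3 and Gzma 1 of 1. The median protein-coding gene had 1 region in all 6 libraries, and 10% of genes had at least the 7 of Gzmb, 22% at least the 4 of Prf1. Of the 14 regions that were missing in some library, 11 were found in more Res-shFabp7 than Res-ctrl libraries, beside 66.5% of such regions in general. Only 1 of the 14, at Prf1, had more Res-ctrl libraries, beside 20.4%, and 2 had equal numbers. The map of called regions by library shows the sites gene by gene.

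**Figure D1:**
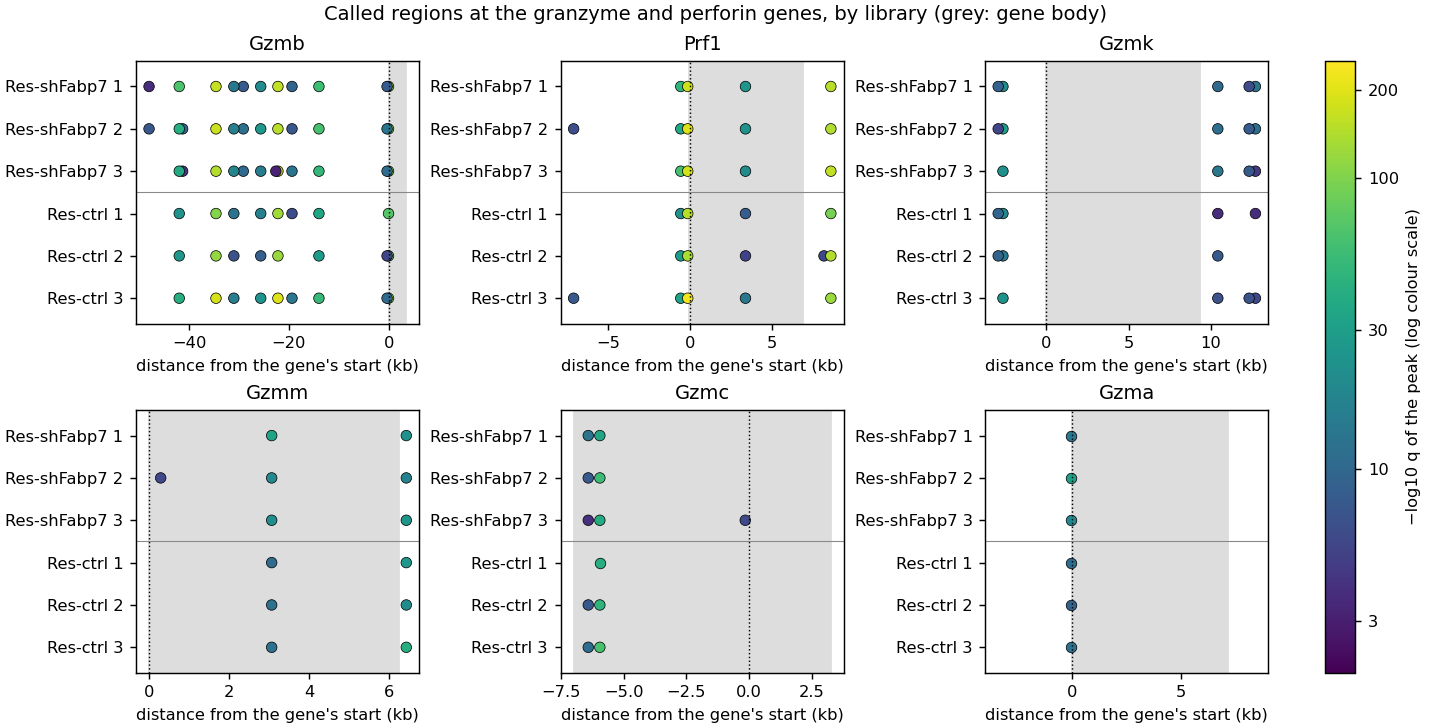
Called regions at the 6 genes in each library. Each point is a region called in a library. Its place is the distance in kb from the gene's start to the region's tallest summit over all libraries (upstream is negative). Points of a region therefore align in all rows, although the summits of single libraries differ. The colour is the highest −log10 q of the library's peaks in the region, on a log colour scale, with the gene body in grey. Gzmb shows 7 sites with a point in every row, all at or upstream of its start.

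The libraries held 26, 30 and 28 peaks of the 6 genes with Res-shFabp7 and 23, 25 and 25 with Res-ctrl. The means were 28 ± 2 and 24.3 ± 1.15 (SD, n = 3 each), a difference of 3.67 peaks. The groups stood apart, at the smallest p of a two-sided exact permutation of 3 against 3 libraries (p = 0.1). Per 1000 peaks of a list the values were 0.249, 0.284 and 0.279 with Res-shFabp7 and 0.271, 0.304 and 0.260 with Res-ctrl. On that scale the groups overlapped, at 0.271 ± 0.0191 and 0.278 ± 0.0232 (exact permutation p = 0.7). With the same number of peaks in each library, the strongest 82153, the difference in peaks was 2 (exact permutation p = 0.6). Gzmb carried most of the difference in peaks, with 12, 14 and 15 against 11, 11 and 11 (exact permutation p = 0.1). Per 1000 peaks of a list the Gzmb values overlapped, at 0.115, 0.132 and 0.150 against 0.130, 0.134 and 0.114 (exact permutation p = 0.6). In peaks, Prf1 had 4, 5 and 4 against 4, 5 and 5, and Gzmk 6, 6 and 4 against 5, 4 and 5.

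Prf1 spans chr10:61297751-61304684 on the plus strand, between Adamts14, 24331 bp before it, and Pald1, 14971 bp after it. Its tallest region lay 0.2 kb before the start, at chr10:61297542-61297826, and its pileup, the read coverage at the summit, was 164, 178 and 168 with Res-shFabp7 and 132, 124 and 207 with Res-ctrl. The groups overlapped, and the highest value was that of Res-ctrl replicate 3. Averaged over libraries, this region stood in the top 9.95% of the 56610 regions called in all 6. A neighbouring region 0.6 kb before the start (chr10:61297118-61297448) had pileups of 68, 58 and 80 against 38, 43 and 56. Every Res-shFabp7 value was above every Res-ctrl value on this scale, which is not corrected for depth, but not after normalisation. A region 8.6 kb after the start, 1708 bp beyond the gene's end (chr10:61306074-61306577), was also tall, with 126, 121 and 131 against 77, 117 and 108. Inside the gene body 1 region, 3.4 kb after the start (chr10:61301118-61301329), had 48, 46 and 43 against 23, 19 and 36. The remaining Prf1 regions were weak: 1 at 7.1 kb upstream was found in Res-shFabp7 replicate 2 and Res-ctrl replicate 3, and 1 at 8.1 kb after the start in Res-ctrl replicate 2.

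Gzmb spans chr14:56258836-56262334 on the minus strand. Gzmc lies 17188 bp beyond its 3′ end, and the nearest gene on its 5′ side, Atp12a, is 102 kb away. All 13 Gzmb regions lay at its start or in that long 5′ interval, with 11 of them between 14.0 and 48.0 kb upstream, of which 6 were in all 6 libraries. The region at the start (chr14:56261772-56262526) had pileups of 124, 109 and 112 with Res-shFabp7 and 72, 81 and 130 with Res-ctrl, groups that overlapped through Res-ctrl replicate 3. Both of the tallest regions were far upstream. The one at 22.2 kb (chr14:56284228-56284879) had 178, 157 and 175 against 128, 119 and 204, and stood in the top 10.2% of all regions in 6 libraries. The one at 34.6 kb (chr14:56296114-56297427) had 170, 171 and 155 against 111, 119 and 184, and stood in the top 11.1%. It was the widest of the 31 regions at 1314 bp and held 2 to 3 peaks per library. In both, Res-ctrl replicate 3 was the highest library with Res-ctrl replicates 1 and 2 lowest.

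The other Gzmb sites in all 6 libraries were lower, and lay 14.0, 25.7, 31.0 and 42.0 kb upstream. The 14.0 kb region had pileups of 64, 67 and 57 against 40, 32 and 57, touching between the groups at 57. The 42.0 kb region had 55, 39 and 35 against 22, 25 and 38, and the groups overlapped. Its surroundings differed from those of the central sites. The local background there was 0.745 to 1.43, near the most frequent value of the lists, while at 22.2 kb it was 4.41 to 8.79. Folds over background overlapped between the sites, 18.3 to 22.2 at 22.2 kb and 13.2 to 23.0 at 42.0 kb. The 25.7 and 31.0 kb sites stood on the same raised background and had folds of 4.62 to 6.92 and 4.02 to 5.35.

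**Figure D2:**
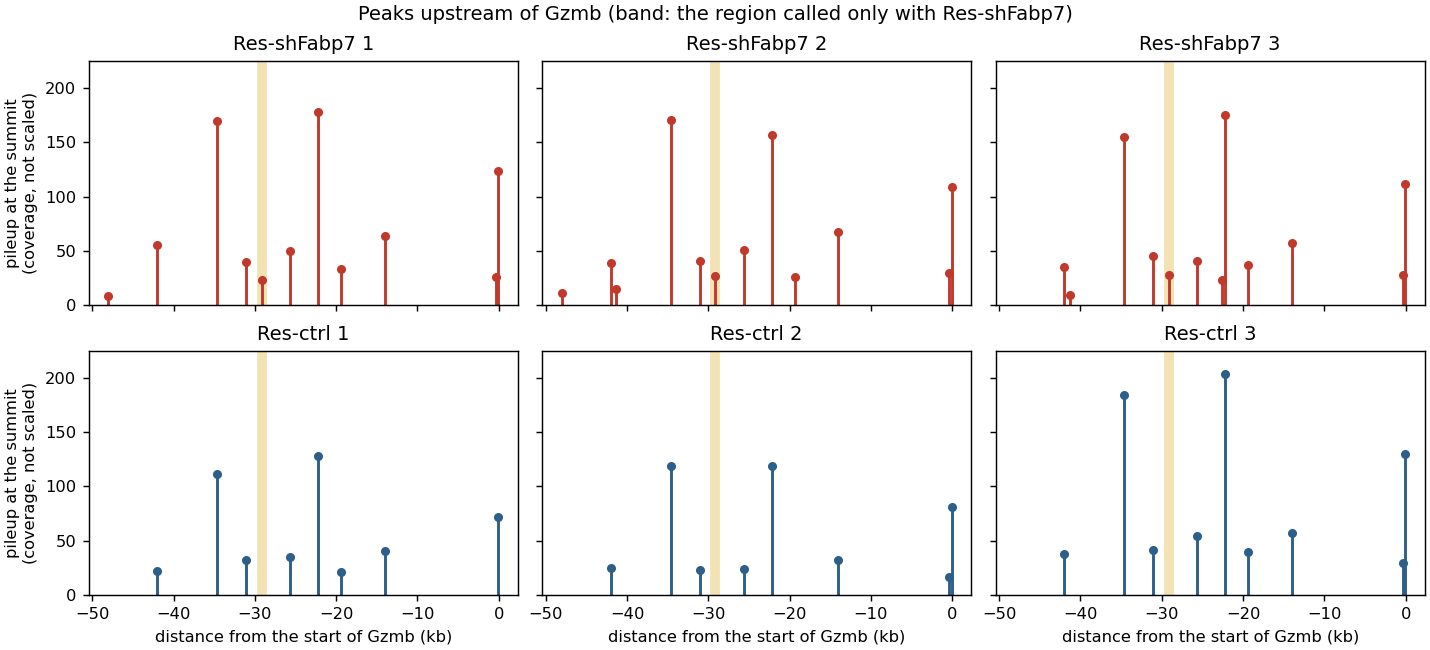
Peaks at and upstream of Gzmb in each library. The vertical axis is the pileup at the summit (read coverage, not scaled for depth), and the band marks the site 29.1 kb upstream. The horizontal axis is the distance in kb from the start to the region's tallest summit over all libraries. The tall sites at 22.2 and 34.6 kb and at the start stand in all 6 panels. Only the Res-shFabp7 panels have a peak in the band, with pileups of 23 to 28.

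Of the 31 regions 1 was found in 3 of 3 Res-shFabp7 libraries and 0 of 3 Res-ctrl libraries, beside 2.28% of all regions, and 0 the other way round, beside 0.155%. The 1 region was a Gzmb site 29.1 kb upstream (chr14:56291421-56291608). It lay 1658 bp from the 31.0 kb region and 3262 bp from the 25.7 kb region, both of which every library held. Its pileups were 23, 27 and 28 and its −log10 q 7.64, 11.5 and 10.5. At the neighbouring 31.0 kb site the pileups were 40, 41 and 45 with Res-shFabp7 and 32, 23 and 41 with Res-ctrl, the lowest in the shallowest library. The deepest control, Res-ctrl replicate 3, also lacked the 29.1 kb peak. Its most frequent background was 1.01, beside 0.868 to 1.03 with Res-shFabp7. The part of depth in the missing control peaks was not tested. The site stayed at 3 against 0 libraries with stricter q limits of 0.01 and 0.001, with equal numbers of peaks and with other ways of merging. Stricter limits and equal numbers only remove peaks, and the neighbouring regions lay too far away to be merged with the site. None of these alternatives could therefore have added a Res-ctrl peak. Its presence was not tested, since 0.1 is the smallest exact p for 3 against 3 libraries, and absence from a list does not show that a site was closed.

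The 5 other Gzmb regions missing in some library were 0.4, 19.4, 22.6, 41.3 and 48.0 kb upstream. Those at 0.4 and 19.4 kb were each missing in 1 library, Res-ctrl replicates 1 and 2 respectively, the shallowest. The 41.3 kb site was found in Res-shFabp7 replicates 2 and 3, the 48.0 kb site in Res-shFabp7 replicates 1 and 2, and the 22.6 kb site in Res-shFabp7 replicate 3. In these last 3 sites the −log10 q was 3.17 to 9.35 and the pileup 8 to 23.

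Gzmk and Gzma, the tryptase-like granzymes, lie on chromosome 13, 70.6 kb apart. Gzmk (chr13:113171630-113180965, minus strand) had no region at its start or inside the gene, and its 5 regions were outside it. The best was 2.6 kb upstream (chr13:113183257-113183740), with pileups of 22, 27 and 23 with Res-shFabp7 and 19, 15 and 24 with Res-ctrl, and it stood below 75.2% of all regions in 6 libraries. A weaker neighbour 2.9 kb upstream was found in 2 libraries of each group. Of the 3 regions beyond the 3′ end, that at 10.4 kb after the start, 1077 bp past the gene, was in all 6 libraries, with 15, 15 and 17 against 7, 10 and 11. Those groups did not overlap before normalisation and did so after it. The other 2, at 12.3 and 12.7 kb, were missing in Res-ctrl replicates 1 and 2 and in Res-ctrl replicate 2.

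Gzma (chr13:113093824-113100981, minus strand) lies wholly within the annotated body of Cdc20b, which bears on how its peaks are counted. Its start was open in all 6 libraries, at chr13:113100901-113101294, with pileups of 17, 28 and 22 against 13, 11 and 16. In 5 of 6 libraries the summit fell upstream of Gzma, inside Cdc20b, and the peak was assigned to Cdc20b. Only the summit of Res-ctrl replicate 2 fell inside both genes, so that the rule gives Gzma 1 peak in all. The region is described here as the Gzma start. No other region belonged to Gzma.

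Gzmc, next to Gzmb, spans chr14:56231397-56241647 on the minus strand, and the start of its promoter window lies inside that body, at 56234657. Its 1 region in all 6 libraries, 5.9 kb upstream of that start and still inside the annotated body (chr14:56240519-56240884), had pileups of 34, 47 and 34 with Res-shFabp7 and 37, 40 and 55 with Res-ctrl. The groups overlapped. A weaker site 6.4 kb upstream was missing in Res-ctrl replicate 1, and a site 0.2 kb upstream was found in Res-shFabp7 replicate 3, with a pileup of 10. That was the 1 library with a peak in the Gzmc promoter window.

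Gzmm spans chr10:79689020-79695261 on the plus strand, 621 bp after Cdc34 and 9096 bp before Bsg. Neither of its promoter windows, at 79689020 and 79693826, overlapped a region. Its body held 1 region in all 6 libraries, 3.1 kb after the start (chr10:79691971-79692316), with pileups of 40, 26 and 29 against 17, 17 and 21, groups that did not overlap. A second lay 148 bp past its 3′ end, 6.4 kb after the start (chr10:79695311-79695538), with 29, 22 and 29 against 28, 22 and 41. The last, 0.3 kb after the start, was found in Res-shFabp7 replicate 2 with a pileup of 12.

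Heights were compared between groups after quantile normalisation of log2 pileups over the 56610 regions in all 6 libraries, which gives each library the same distribution. By limma with Benjamini-Hochberg adjustment over all 56610, 0 of the 17 member regions passed 0.05, beside 0% of all regions in either direction. The smallest adjusted p was 0.124 among the members and 0.0746 among all. At an unadjusted p under 0.05 there were 3 of 17, beside 17.3% of all, and in 5 of 17 the groups did not overlap, beside 21.9%. A higher value with Res-shFabp7 was seen in 13 of 17, beside 48% of all, and in 12, 12 and 10 of 17 with median scaling, normal scores and fold over background. For these alternatives the share over all regions was not computed. Their median differences over all regions were -0.0460, -0.0105 (in SD units) and -0.0202. The median difference was 0.09 for the 17 and -0.01 for all (log2, Res-shFabp7 minus Res-ctrl).

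**Figure D3:**
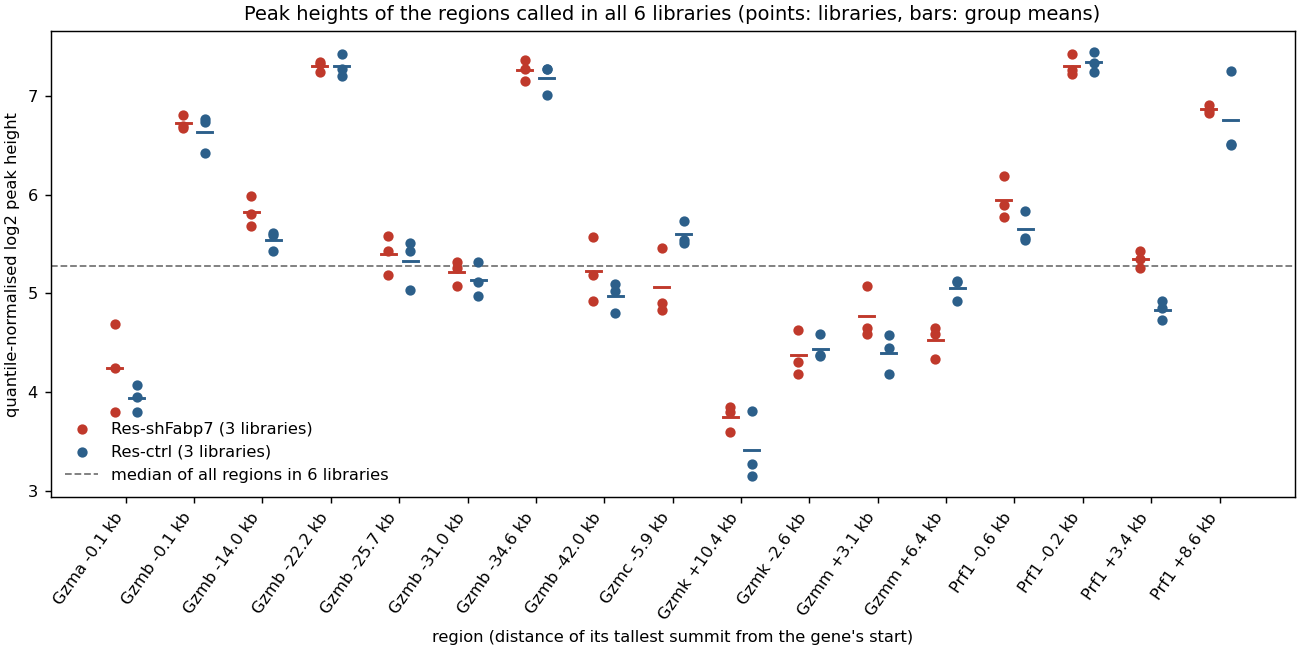
Quantile-normalised log2 peak heights of the 17 regions with a peak in all 6 libraries. Points are libraries, short bars are the means of 3 libraries, and the dashed line is the median of all 56610 regions; the tallest Gzmb and Prf1 sites lie at about the same height in both groups, at means of 7.30 and 7.30 (Gzmb, 22.2 kb upstream) and 7.30 and 7.34 (Prf1, 0.2 kb upstream).

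The 3 regions with an unadjusted p under 0.05 were at Prf1, Gzmm and Gzmc, and that of Prf1 is named because of its value. Inside Prf1, 3.4 kb after the start, the normalised heights were 5.35, 5.43 and 5.25 with Res-shFabp7 and 4.86, 4.73 and 4.93 with Res-ctrl. All 3 Res-shFabp7 libraries were above all 3 Res-ctrl libraries, by 0.51 on average (SE 0.13, limma adjusted p = 0.124). With Res-ctrl replicate 3, the deepest control, as the only control, the difference was 0.42. Just past the end of Gzmm, the heights were 4.58, 4.34 and 4.65 against 5.13, 4.93 and 5.11, all lower with Res-shFabp7, by -0.53 (SE 0.14, limma adjusted p = 0.134). Within Gzmc they were 4.83, 5.46 and 4.90 against 5.51, 5.73 and 5.54, a difference of -0.53 (SE 0.19, limma adjusted p = 0.211). The groups there did not overlap, although Res-shFabp7 replicate 2 at 5.46 lay just below Res-ctrl replicate 1 at 5.51. Before normalisation the pileups of the groups overlapped at this Gzmc region and at the Gzmm region.

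The intervals at the 5 tallest sites were as follows. At the Gzmb site 22.2 kb upstream the difference was 0.00 (95% interval -0.28 to 0.29, limma adjusted p = 0.995), and at the Prf1 promoter -0.04 (-0.33 to 0.26, adjusted p = 0.912). At the Gzmb site 34.6 kb upstream it was 0.08 (-0.24 to 0.39, adjusted p = 0.821) and at the Gzmb start 0.09 (-0.24 to 0.41, adjusted p = 0.801). The Prf1 site 8.6 kb after the start had the widest of these intervals, 0.11 (-0.38 to 0.60, adjusted p = 0.838), with heights of 6.83, 6.86 and 6.90 against 6.51, 7.25 and 6.50. Res-ctrl replicate 2 stood above the other 5 libraries there. All 7 Gzmb regions had a difference above 0, from 0.00 to 0.28, beside 48% of all regions. With median scaling 5 of 7 did, with normal scores 6 of 7 and with fold over background 3 of 7. No share over all regions was computed for these. The largest Gzmb difference, 0.28 at 14.0 kb upstream (-0.03 to 0.60, limma adjusted p = 0.338), came from heights of 5.80, 5.99 and 5.68 against 5.61, 5.43 and 5.59, groups that did not overlap.

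**Figure D4:**
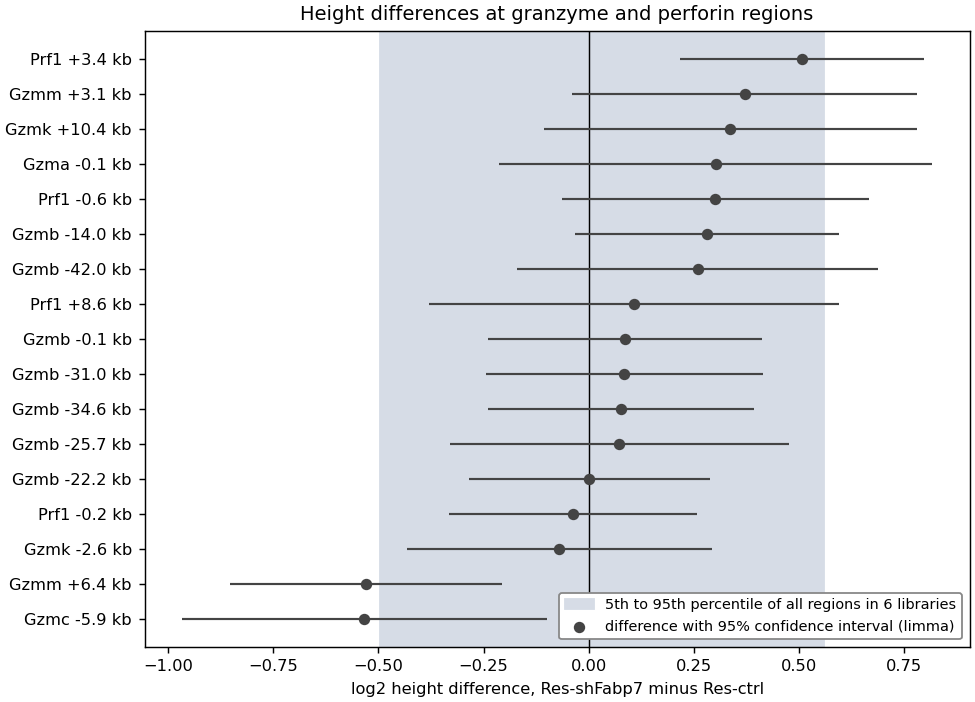
Differences in log2 height, Res-shFabp7 minus Res-ctrl, with 95% confidence intervals from limma (n = 3 libraries per group). The shaded band holds the 5th to 95th percentile of the differences of all 56610 regions, -0.50 to 0.56; 14 of the 17 intervals include 0, and those of Prf1 at 3.4 kb, Gzmm at 6.4 kb and Gzmc at 5.9 kb do not.

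Other genes of the granule pathway were counted in lists. Peaks of a list were counted by region, also where a peak's own summit was nearest another gene. Counted so, the 6 genes themselves held 27 to 31 peaks per Res-shFabp7 library and 24 to 26 per Res-ctrl library. Of 13 granzyme and mast cell protease neighbours on chromosome 14, 6 had a region. Gzmd, Gzme, Gzmg, Mcpt1, Mcpt4, Mcpt8 and Mcpt9 had none in any library, as did 25% of all protein-coding genes. Gzmf, another granzyme, had 3 regions in all 6 libraries and Cma1, a mast cell chymase, 1. Of the neighbours' 12 regions, 2 were found in the Res-shFabp7 group alone, beside 2.28% of all regions, at Mcpt2 (folds of 8.03 to 9.19) and at Ctsg, cathepsin G of neutrophils (4.82 to 6.42). The neighbours' peaks numbered 7 to 10 per Res-shFabp7 library and 4 to 6 per Res-ctrl library, or 0.0669 to 0.0945 and 0.0471 to 0.0623 per 1000 peaks of the list.

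Granule proteins, processing enzymes and inhibitors (15 genes, such as serglycin, the granule proteoglycan Srgn, and Ctsc, the protease that activates granzymes) had 129 regions, 56 of them in all 6 libraries. Of these 129, 4 were found in the Res-shFabp7 group alone and 0 in the Res-ctrl group alone. They were at Ctsc, at Lamp2, a lysosomal membrane protein, at Serpinb9, the inhibitor of granzyme B, and at Serpinb6b. The exocytosis machinery (15 genes) had 184 regions, 83 in all 6 libraries, with 9 and 0. Among these were Rab27a, the GTPase of granule docking, Stx11, a syntaxin needed for granule fusion, and Lyst, the gene of Chediak-Higashi syndrome, with 2 sites. Transcription factors of the cytotoxic program (18 genes matched, Zfp683 not) had 714 regions, 316 in all 6, with 11 and 1. Irf4 had 1 in each direction, and Prdm1, which encodes Blimp-1, 1 only with Res-shFabp7. Other effector molecules of the same cells (10 genes) had 169 regions, 82 in all 6, with 4 and 0. These shares stand beside the 2.28% and 0.155% of all regions.

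For heights in those lists, 0 regions passed the adjusted threshold. At an unadjusted p under 0.05, with 9.21% of all regions higher and 8.12% lower, granule proteins had 7 higher and 3 lower of 56, exocytosis genes 8 and 5 of 83, and transcription factors 35 and 18 of 316. Their median differences were 0.05, 0.03 and 0.02. Other effector molecules of the same cells (10 genes, such as the cytokine genes Ifng and Tnf) had 20 higher and 4 lower of 82, a median of 0.17. Ifng held 9 of those 20, with a median of 0.44 over its 19 regions. Gzmb and Prf1 together had 1 such region of 11, the one inside Prf1.

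Markers of other cells were measured in the same way. Peaks per Res-shFabp7 and per Res-ctrl library numbered 28 to 30 and 23 to 27 for natural killer cell genes, 18 to 23 and 11 to 16 for B cell genes and 17 to 19 and 12 to 13 for lung epithelial genes. These 3 lists did not overlap between the groups, and neither did the lengths of the whole peak lists. Per 1000 peaks of a list, natural killer cell genes overlapped, at 0.277 to 0.284 and 0.260 to 0.318. B cell genes, at 0.170 to 0.220 and 0.134 to 0.166, and lung epithelial genes, at 0.170 to 0.180 and 0.125 to 0.158, did not. Mast cell and basophil genes had 15 to 17 and 12 to 18 peaks, myeloid genes 20 to 26 and 17 to 20, CD8 T cell genes 144 to 154 and 126 to 145 and CD4 T cell genes 41 to 43 and 35 to 44. Per 1000 peaks the CD4 T cell genes had 0.388 to 0.419 and 0.426 to 0.519, lower with Res-shFabp7 and not overlapping. On that scale the groups overlapped for CD8 T cell genes, at 1.36 to 1.54 and 1.51 to 1.59. They also did for mast cell and basophil genes (0.142 to 0.163 and 0.146 to 0.212) and myeloid genes (0.191 to 0.246 and 0.200 to 0.208). How often lists of other genes stand apart in this way was not measured. Fcer1a, Mcpt4 and Mcpt8 of mast cells and basophils, Ms4a1 of B cells, and Krt8 and Sftpc of lung epithelium had no region in any library. In the same lists Hdc had 4 regions in all 6 libraries, Cpa3 3, Kit 1, Ms4a2 1 and Cma1 1, Pax5 and Ebf1 had 3 each and Cd79b 1, and Cdh1 had 6 and Epcam 4. Their part in the peak counts of the granzyme genes was not tested.

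Genes with heights most like those of Gzmb and Prf1 across the 6 libraries were looked up among genes with at least 5 regions in all 6. Likeness was the mean absolute difference, over 6 libraries, of the gene's mean normalised log2 height. For Gzmb, among 3611 genes, the closest were Gimap4 at 0.0300, Map2k3 at 0.0388 and 4930512M02Rik at 0.0424, and 89 genes lay within 0.1. For Prf1, which itself had 4 such regions, the closest of 3612 were Eapp at 0.0585, Pecr at 0.0654 and Ifit1bl1 at 0.0693, and 15 lay within 0.1.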

How the data were processed

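ATAC-seq libraries of CD8+ T cells (2 groups of 3) had 35 to 75 M pairs of 76-base reads each, per the labels' protocols. The submitters' processing notes name MACS2 2.2.7.1, Bowtie 1.1.2, cutadapt 2.8, Trim Galore 0.6.5 and build mm10. The sources used here do not state each library's depth, transposase shift, duplicate handling or peak mode. Each library has its own list, which the authors deposited at a q of 0.05, with the p-value and q-value as −log10. The deposited pileup is a coverage signal at the summit, unscaled, and the deposited fold is a ratio to local background. Starts and summits, which appear to count from 0, are given from 1.

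From these lists, peaks were assigned to genes by summit, merged into regions (1 bp), and the tallest pileup per library and region was taken as log2 height and quantile-normalised. Background was recovered as (pileup + 1)/fold − 1. Groups were compared with limma 3.58.1 (R 4.3.3) over 56610 regions, Benjamini-Hochberg threshold 0.05, and with two-sided exact permutation. The lists hold no read counts per region, so no count model was fitted. Gene positions and promoters came from RefSeq tables of GRCm38.p6 (6 of 6 genes matched, and 7 promoter windows). Strand is from the promoter table. Exons, introns and peak sequences were not used here.

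The members and lists were chosen with earlier results of these data known. The text names, for each of the 6 genes, its tallest region in all 6 libraries, the region nearest its ends, any region found with 1 group only and the 2 largest height differences. From the lists of neighbours, granule proteins, exocytosis genes and transcription factors it names up to 3 genes per direction with a region in 1 group only. For other effector molecules and cell markers it names none on this ground. The Prf1 region at 3.4 kb, Serpinb6b, Ifng in the height counts and the weak sites were named after their values were seen. Alternatives were stricter q, equal numbers of peaks, a gene distance of 20 kb, other merging and overlap rules, other scalings and filters, leaving out each library and a replicate block. Res-ctrl replicate 3 as the only control was added after seeing the data.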

Additional observations from a re-analysis of the deposited data

How the results depend on the processing

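The count of member regions past the adjusted threshold was 0 under all 15 alternatives of the height fit, by limma in each, with 1 to 6 regions at an unadjusted p under 0.05. Over all regions normal scores gave 1 call of 56610 and the other alternatives 0. The region inside Prf1 at 3.4 kb kept its direction in all 15, at 0.42 to 0.64 and, in SD units by normal scores, 0.37. Those of Gzmm at 6.4 kb (-0.59 to -0.37) and Gzmc at 5.9 kb (-0.73 to -0.21) did so too. These 3 were the regions with an unadjusted p under 0.05 in the same data, and their normalised heights did not overlap between the groups. Leaving out a library or using Res-ctrl replicate 3 alone could therefore hardly reverse them. Differences near 0 changed sign. Depth limits what a missing peak can show, most in Res-ctrl replicates 1 and 2, the shallowest libraries.

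Member peaks per 1000 differed by -0.00782, by 0.0243 with equal numbers of peaks, by 0.0109 with Res-ctrl replicate 3 as the only control and by -0.0172 to 0.00517 with each library left out, above 0 without Res-shFabp7 replicate 1 or Res-ctrl replicate 2. The difference in peaks was 3.67, 2.67 to 4.67 with each library left out, and 1.33 within 20 kb. Member regions found only with Res-shFabp7 numbered 1, and 1 to 2 with a library left out (2 without Res-shFabp7 replicate 1 or 3 or Res-ctrl replicate 3). Over all regions there were 3065, and 3896 to 6987 with a library left out. In the settings with 2 member regions, the totals over all were 5056, 5760 and 6987. Member regions of this kind numbered 0 within 20 kb, where the site lies too far from Gzmb to count. The unadjusted count of 3 became 5 with median scaling, beside 18.3% of all regions, and 6 of 23 with a peak in at least 4 libraries, beside 15.3%. With a library left out it was 2 to 4, beside 13.3% to 18.1% of all regions. The median difference became 0.19 with a peak in at least 4 libraries (0.08 over all regions) and 0.0452 to 0.135 with a library left out, the highest without Res-ctrl replicate 3. The cause was not tested.

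At the Gzmb start the difference was -0.0925 with fold over background, -0.0405 with Res-ctrl replicate 3 alone and -0.0231 to 0.149 with a library left out. At 22.2 kb these were -0.217, -0.118 and -0.0458 to 0.0625, with -0.113 by median scaling and -0.00383 after merging across 200 bp. By normal scores, in SD units, the value at 22.2 kb was -0.00102. At 25.7 kb the values with fold over background, with Res-ctrl replicate 3 alone and with a library left out were -0.0582, -0.115 and -0.0728 to 0.181. At 34.6 kb they were -0.0291, -0.0114 and -0.0115 to 0.135, with -0.0344 by median scaling. At 31.0 kb leaving out a library gave -8.69e-05 to 0.176. Gzmk at 2.6 kb upstream had 0.00144 by median scaling, 0.0401 by fold, 0.0685 with a peak in at least 4 libraries, 0.00749 with Res-ctrl replicate 3 alone and -0.361 to 0.0325 with a library left out. Merging across 200 bp joined the Prf1 regions at 0.6 and 0.2 kb into 1, led by the taller, with -0.0402. At 0.2 kb upstream of Prf1 the difference was 0.0280 with a peak in at least 4 libraries and -0.0982 to 0.0127 with a library left out. At 8.6 kb leaving out a library gave -0.0202 to 0.357.

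The sample labels give replicate numbers without naming a pairing. Deviations of same-numbered libraries correlated at -0.0323, 0.0281 and -0.0176, and those of differently numbered libraries at -0.0518 to 0.0690. These values do not decide whether libraries were paired. With a replicate block the limma fit made 0 calls, the unadjusted count was 3 and the lowest adjusted p of a member 0.185. For peaks the block, with signs exchanged within pairs, gave a difference of 3.67 (exact p = 0.25). That is the smallest p this test allows, as every pair had more peaks with Res-shFabp7.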
